A study of Mus musculus with 18 samples.

Results

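The genes described here encode the CD3 signalling subunits of the T cell receptor and the proteins that act next to it: Cd3d, Cd3e, Cd3g, Cd247, Lck, Zap70, Lat, Themis, Ptpn6 and Ubash3a. They were chosen by name, and all 10 were present among the 55494 genes counted. The antibody against CD3 was read beside them in the same cells. Values were compared between thymocytes split by surface CD4 and CD8A, between 2 transgenic receptors and between 3 kinds of host.

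The cells came from mixed bone marrow chimeras on the B6 background, analysed 6 weeks after transplant at 14 weeks of age. Each recipient received 30% OT1 CD45.1.2 or OT2 CD45.1.2 marrow and 70% B6.CD451(MV) competitor marrow. OT1 is a receptor for an ovalbumin peptide on MHC class I, and OT2 is a receptor for an ovalbumin peptide on MHC class II. Donor thymocytes with low CD44 and both transgenic chains, Vα2 and Vβ5, were sorted and profiled on 1 droplet lane as RNA and antibody tags. The PosSelected hosts were wild type C57BL6/Ncr. The NegSelected hosts were RIPmOVA mice with an Ins2-TFRC/OVA transgene on C57BL/6, in which the insulin promoter drives membrane ovalbumin. The NoSelection hosts were B6.Ly5.1/Ncr animals, b2m KO for the OT1 marrow and MHCII KO for the OT2 marrow. For that OT2 host another label names B2m instead, and the treatment label was followed. The labels give female animals and no pooling, and each combination of receptor and host was 1 mouse, so 6 mice in all. NoSelection recipients carried CD45.1 and the other recipients CD45.2, and every chimera shared the competitor marrow.

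The T cell receptor has no signalling motif of its own and depends on CD3δ, CD3ε, CD3γ and the ζ chain, products of Cd3d, Cd3e, Cd3g and Cd247. The kinase Lck, carried by CD4 and CD8, phosphorylates these chains; Zap70 then docks on them and phosphorylates Lat, the membrane scaffold from which downstream signals start. In the thymus this machinery reads self-ligand strength at the CD4+CD8+ stage, where Themis is needed for positive selection. The phosphatase SHP-1 (Ptpn6), which Themis binds, and the ubiquitin-associated protein encoded by Ubash3a restrain the signal.

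Promoter windows of 4 of the 10 genes are shown because they belong to the genes called below (Themis, Lck, Cd3d) or to the immediate neighbour of one (Cd3g). RefSeq entries of GRCm38.p6 matched all 10 members with 14 windows, each reaching from 250 bases before a start site to 50 after it. Themis has 2 windows, of which only the one at the start of its span is printed. Themis lies at chr10:28668360-28883820, Lck at chr4:129548344-129573641, Cd3g at chr9:44969572-44980431 and Cd3d at chr9:44981769-44987052. Cd3g and Cd3d are read away from each other from start sites 1355 bases apart, and Cd3e follows at chr9:44998735-45009663. Capitals mark matches on either strand to the E-box CAGNTG and to the RUNX motif TGTGGT, which do not overlap in these windows. The tag counted for the CD3 antibody is given last, all in capitals.
Themis, chr10:28668110-28668409, plus strand: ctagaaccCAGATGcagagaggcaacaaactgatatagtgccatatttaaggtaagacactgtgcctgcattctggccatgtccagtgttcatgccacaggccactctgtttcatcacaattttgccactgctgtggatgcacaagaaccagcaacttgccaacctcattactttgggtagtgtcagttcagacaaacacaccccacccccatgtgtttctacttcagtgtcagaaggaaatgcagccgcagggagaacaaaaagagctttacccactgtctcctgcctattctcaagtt
Lck, start nearer the coding exons, chr4:129558323-129558622, minus strand: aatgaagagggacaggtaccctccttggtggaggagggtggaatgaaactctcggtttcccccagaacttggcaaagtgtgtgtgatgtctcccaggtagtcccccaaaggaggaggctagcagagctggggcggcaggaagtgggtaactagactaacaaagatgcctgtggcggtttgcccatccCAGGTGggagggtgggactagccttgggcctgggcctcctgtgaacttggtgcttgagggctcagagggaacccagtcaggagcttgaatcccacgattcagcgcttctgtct
Lck, start farther upstream, chr4:129573592-129573891, minus strand: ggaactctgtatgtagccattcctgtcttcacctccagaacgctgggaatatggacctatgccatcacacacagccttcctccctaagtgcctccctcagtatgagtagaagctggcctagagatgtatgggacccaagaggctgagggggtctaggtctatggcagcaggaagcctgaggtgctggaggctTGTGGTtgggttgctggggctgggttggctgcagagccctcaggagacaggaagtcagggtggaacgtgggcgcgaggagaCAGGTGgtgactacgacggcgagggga
Cd3d, chr9:44981536-44981835, plus strand: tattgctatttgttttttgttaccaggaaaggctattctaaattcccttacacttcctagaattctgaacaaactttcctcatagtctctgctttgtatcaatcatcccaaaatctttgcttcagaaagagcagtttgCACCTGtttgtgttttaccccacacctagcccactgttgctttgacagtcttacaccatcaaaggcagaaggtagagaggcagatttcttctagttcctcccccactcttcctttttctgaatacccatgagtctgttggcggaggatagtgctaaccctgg
Cd3g, chr9:44980382-44980681, minus strand: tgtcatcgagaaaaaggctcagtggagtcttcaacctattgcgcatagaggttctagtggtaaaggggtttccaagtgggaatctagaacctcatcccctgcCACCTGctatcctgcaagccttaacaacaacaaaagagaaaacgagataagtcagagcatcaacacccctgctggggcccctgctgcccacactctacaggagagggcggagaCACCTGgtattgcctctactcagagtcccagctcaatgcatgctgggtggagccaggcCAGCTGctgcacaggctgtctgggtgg
CD3 antibody tag: GTATGTCCGCTCGAT

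An E-box match was found in 11 of the 14 windows, from 9 genes, against 51.4% of all 32851 promoter windows of this length. The RUNX motif was found in 3 windows, from 3 genes, against 16.8%. No window of a member held the ETS motif CCGGAAG (8.86% of all windows) or the TATA box TATAAA (13.6%). These are matches of letters in the reference and no measurement of binding.

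The 1331 cells carried 525843 to 1867488 RNA UMIs and 422283 to 1234798 antibody UMIs per mouse. A threshold on each of the CD4 and CD8A antibodies (148 and 199 counts per 10000 antibody counts of a cell) gave 4 gates, with 155 and 137 cells within 0.5 log2 units of the CD4 and CD8A threshold. Sums of fewer than 10 cells were left out of tests, which removed the CD4+CD8+ gate of the OT1 NegSelected mouse and the CD4-CD8+ gate of the OT2 NoSelection and OT2 PosSelected mice. Between CD4+CD8+ and CD4-CD8- cells coreceptor RNA followed the gates. Cd4 measured 161 to 681 CPM (UMIs per 1000000 UMIs of a sum) and 2.03 to 41.6 CPM in these. Cd8a measured 536 to 2183 and 16.3 to 150 CPM. In the single-positive gates Cd4 ran from 154 to 346 CPM (CD4+CD8-) and from 7.49 to 157 CPM (CD4-CD8+), so the 2 gates overlapped. Cd8a ran from 0 to 257 CPM and from 306 to 892 CPM there, without overlap. Only 28 cells had no UMI of Cd3d, Cd3e or Cd3g; their median depth was 1247 UMIs, against 4051 over all cells. With Cd247 added, 3 cells had none.

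**Figure D1:**
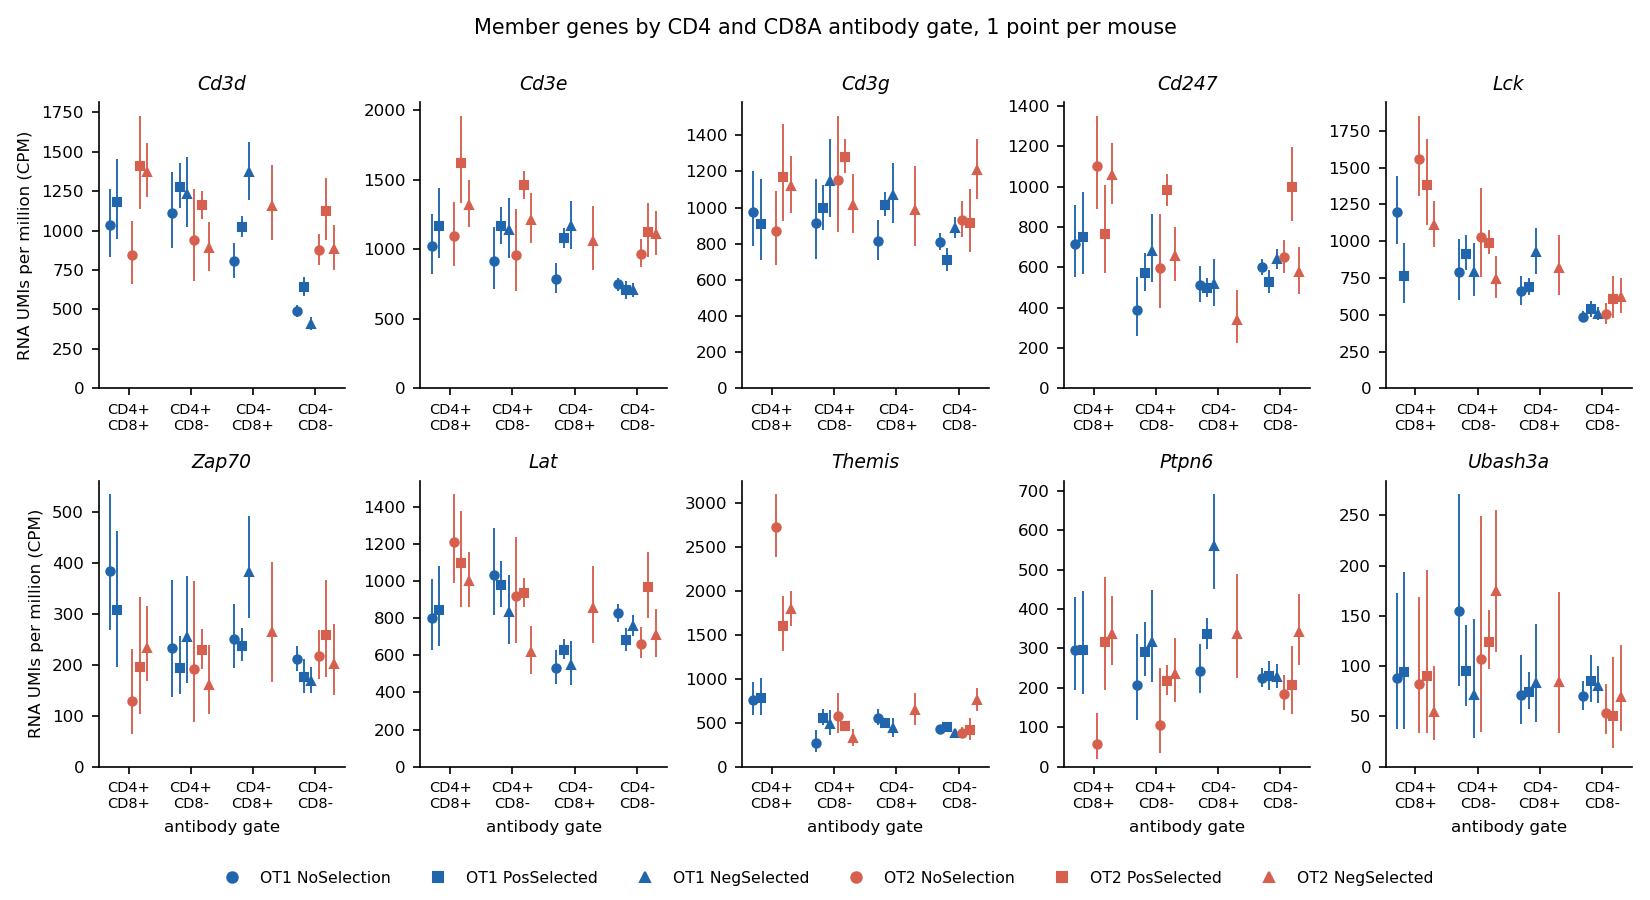
RNA of the 10 genes in CPM (y axis, linear from 0) for the 4 antibody gates (x axis). Each point is 1 mouse, colour is the receptor, shape is the host, and bars are exact Poisson 95% intervals for counting error only. Themis stands at 758 to 2723 CPM in CD4+CD8+ cells and at or below 756 CPM in CD4-CD8- cells, and Lck at 764 to 1561 against 486 to 623 CPM.

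The gates were compared in 1 edgeR quasi-likelihood fit with mouse as a block, over 21 sums and 4374 genes, two-sided with Benjamini-Hochberg adjustment. Of the 10 genes, 1 was called lower and 0 higher in CD4+CD8- than in CD4+CD8+ cells, where 10.3% of all genes were called in either direction and 4.6% lower. In CD4-CD8+ against CD4+CD8+ cells 1 was called lower, against 5.4% of all genes in either direction and 1.55% lower. In CD4-CD8- against CD4+CD8+ cells 3 were called lower, against 12.7% in either direction and 5.3% lower. Between CD4+CD8- and CD4-CD8+ cells edgeR called 0 of the 10, against 3.66% of all genes; 3 had an unadjusted p under 0.05, and DESeq2 called 0 with 2 under 0.05. In sums over cells, fewer cells of a type and less RNA per cell cannot be told apart.

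**Figure D2:**
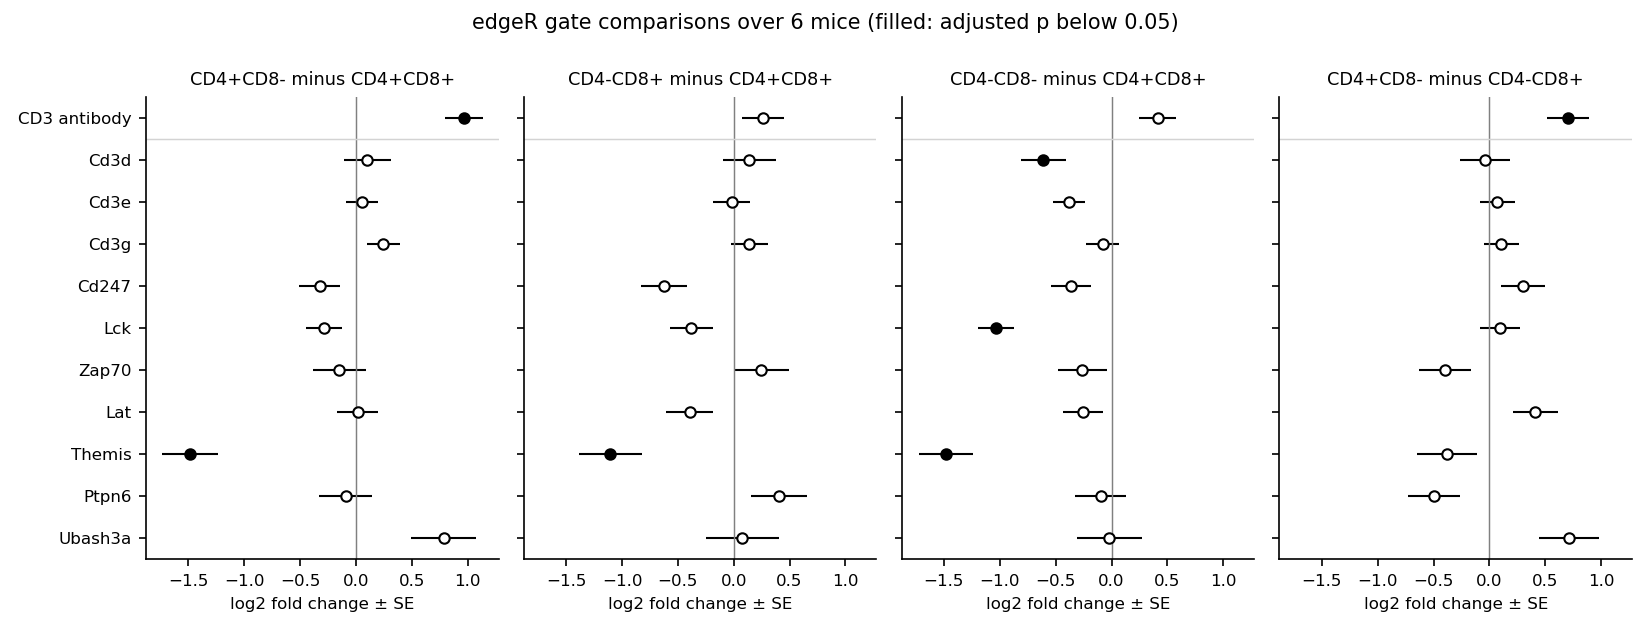
log2 fold changes (x axis, with SE as bars) of the CD3 antibody and the 10 genes (y axis) in 4 comparisons of gates, from edgeR quasi-likelihood fits with mouse as a block. Filled points had an adjusted p below 0.05. Themis is filled to the left of 0 in the 3 comparisons with CD4+CD8+ cells, Lck and Cd3d only in the CD4-CD8- one, and the CD3 antibody to the right in both comparisons of CD4+CD8- cells.

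Among the CD3 subunits, Cd3d, Cd3e and Cd3g were not called between the CD4+CD8+ gate and either single-positive gate. Cd3d, the δ subunit, measured 1033 and 1180 CPM in CD4+CD8+ cells of the OT1 NoSelection and OT1 PosSelected mice, and 845, 1410 and 1375 CPM in those of OT2 without selection, with positive and with negative selection. It ran from 892 to 1279 CPM in CD4+CD8- cells (median 1136, 6 mice), inside the CD4+CD8+ range. The log2 fold change was 0.10 (SE 0.21, adjusted p = 0.841, edgeR). Cd3e, the ε subunit shared by both CD3 pairs, had a log2 fold change of 0.05 (SE 0.14, adjusted p = 0.878 by edgeR) and Cd3g, the γ subunit, 0.24 (SE 0.15, adjusted p = 0.35 by edgeR) in the same comparison. In CD4-CD8+ against CD4+CD8+ cells the 3 genes had log2 fold changes of 0.14, -0.02 and 0.14, and none passed the edgeR threshold. With library size as the only scaling, Cd3d and Cd3e turned to -0.08 and -0.12 in CD4+CD8- cells, and Cd3d and Cd3g to -0.04 and -0.03 in CD4-CD8+ cells, again not called, so these values have no settled direction. Cd3e CPM ran from 1022 to 1621 in CD4+CD8+, 917 to 1460 in CD4+CD8- and 705 to 1124 in CD4-CD8- cells, and Cd3g CPM from 869 to 1170, 917 to 1282 and 710 to 1206 in these gates. A p that misses the threshold does not show equal levels: an SE of 0.14 to 0.24 in these fits leaves room for modest differences.

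Cd3d was lower in CD4-CD8- cells. In OT1 mice it measured 491 (NoSelection), 643 (PosSelected) and 410 CPM (NegSelected) there, and in OT2 mice of these hosts 877, 1124 and 883 CPM. Of 5 mice with both gates, 4 were lower in CD4-CD8- cells, and the groups overlapped only through OT2 values. The log2 fold change was -0.61 (SE 0.20, adjusted p = 0.0498, edgeR), the weakest call among the members: it was lost with RLE size factors (adjusted p = 0.0503, edgeR) and in DESeq2 (adjusted p = 0.0537), and without any 1 mouse other than OT2 NoSelection. Cd3e was lower in 5 of 5 mice (0.606 to 0.887 of the CD4+CD8+ CPM) with a log2 fold change of -0.38 (SE 0.14, adjusted p = 0.0787, edgeR, DESeq2 adjusted p = 0.0196). Cd3g, whose promoter faces that of Cd3d, had a log2 fold change of -0.08 (SE 0.14, adjusted p = 0.78, edgeR).

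Cd247 encodes the ζ chain, which carries most of the signalling motifs. In CD4+CD8+ cells it measured 714 and 751 CPM in OT1 NoSelection and PosSelected mice and 1103, 765 and 1060 CPM in OT2 NoSelection, PosSelected and NegSelected mice. In CD4-CD8+ cells it measured 513, 498 and 516 CPM in the 3 OT1 mice and 338 CPM in the OT2 NegSelected mouse. All 4 of these values lay below all 5 of the CD4+CD8+ values. The log2 fold change was -0.62 (SE 0.21, adjusted p = 0.0807, edgeR), which edgeR did not call and DESeq2 did (adjusted p = 0.0476). Without the OT2 PosSelected mouse it was -0.78 and called (adjusted p = 0.0353, edgeR), and without the OT2 NegSelected mouse -0.43 (adjusted p = 0.41, edgeR). In CD4+CD8- and CD4-CD8- cells it ranged over 388 to 982 and 528 to 999 CPM, both overlapping the CD4+CD8+ values, with the OT2 PosSelected mouse highest in each.

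Lck, the kinase that opens the cascade, had the lowest p of the 10 in CD4-CD8- cells. In CD4+CD8+ cells Lck measured 1197 and 764 CPM in OT1 NoSelection and PosSelected mice and 1561, 1380 and 1108 CPM in OT2 NoSelection, PosSelected and NegSelected mice. It ran from 486 to 623 CPM in CD4-CD8- cells (median 522, 6 mice). Every CD4-CD8- value lay below every CD4+CD8+ value, and Lck was lower in 5 of 5 mice (0.324 to 0.703 of the CD4+CD8+ CPM). The log2 fold change was -1.03 (SE 0.16, adjusted p = 0.000119, edgeR), and the call was kept without each mouse in turn (-1.12 to -0.90). In the single-positive gates Lck ran from 744 to 1026 CPM (CD4+CD8-) and from 659 to 923 CPM (CD4-CD8+), above every CD4-CD8- value and overlapping the CD4+CD8+ values. Their log2 fold changes from CD4+CD8+ cells were -0.28 (SE 0.16, adjusted p = 0.323, edgeR) and -0.38 (SE 0.19, adjusted p = 0.255, edgeR).

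Zap70, the kinase recruited to phosphorylated CD3 chains, did not pass the edgeR threshold in any of the 4 comparisons of gates. It measured 384 and 308 CPM in OT1 and 129, 195 and 234 CPM in OT2 CD4+CD8+ cells, so these values did not overlap between the receptors. They came from sums of 19 to 80 cells, without the OT1 NegSelected mouse (9 cells), and receptors were not tested in that gate. In CD4-CD8+ cells Zap70 measured 251 (NoSelection), 238 (PosSelected) and 382 CPM (NegSelected) in OT1 mice and 265 CPM in the OT2 NegSelected mouse. Each of the 4 mice with both single-positive gates had less Zap70 in CD4+CD8- than in CD4-CD8+ cells (0.606 to 0.927 of the CPM), with a log2 fold change of -0.40 (SE 0.23, adjusted p = 0.45, edgeR). Zap70 ran from 161 to 254 CPM in CD4+CD8- and from 169 to 258 CPM in CD4-CD8- cells, both inside the CD4+CD8+ range.

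Lat, the scaffold that Zap70 phosphorylates, ran from 802 to 1209 CPM in CD4+CD8+ and from 617 to 1033 CPM in CD4+CD8- cells. In CD4-CD8+ cells it measured 532, 631 and 548 CPM in the 3 OT1 mice but 856 CPM in the OT2 NegSelected mouse. Between the single-positive gates its log2 fold change was 0.41 (SE 0.20, adjusted p = 0.332, edgeR). It was 0.72 and called without the OT2 NegSelected mouse (adjusted p = 0.0466, edgeR) and 0.78 and called with OT1 mice alone (adjusted p = 0.0162, edgeR). With OT2 mice alone it was -0.39 (adjusted p = 0.996, edgeR), and without the OT1 NoSelection mouse 0.27 (adjusted p = 0.748, edgeR). In CD4-CD8- cells Lat ran from 663 to 966 CPM, with a log2 fold change of -0.25 from CD4+CD8+ cells that edgeR did not call.

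Themis, the selection protein that binds SHP-1, had the largest log2 fold change of the 10 between CD4+CD8+ cells and each of the other gates. In CD4+CD8+ cells it measured 758 and 778 CPM in OT1 NoSelection and PosSelected mice and 2723, 1606 and 1793 CPM in OT2 NoSelection, PosSelected and NegSelected mice. It ran from 271 to 577 CPM in CD4+CD8- cells (median 473, 6 mice), and in CD4-CD8+ cells it measured 558, 501 and 439 CPM in the OT1 mice and 639 CPM in the OT2 NegSelected mouse. Neither single-positive gate overlapped with CD4+CD8+ cells. The CD4-CD8- values ran from 381 to 756 CPM (median 422), just under the lowest CD4+CD8+ value.

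The Themis log2 fold changes from CD4+CD8+ cells were -1.49 in CD4+CD8- (SE 0.25, adjusted p = 0.000324, edgeR), -1.11 in CD4-CD8+ (SE 0.28, adjusted p = 0.0204, edgeR) and -1.48 in CD4-CD8- cells (SE 0.24, adjusted p = 0.000177, edgeR). Themis was lower in 5 of 5, 3 of 3 and 5 of 5 mice. With OT1 mice alone the 3 values were -0.62, -0.52 and -0.75 and none was called (adjusted p = 0.399, 0.584 and 0.139, edgeR). The CD4-CD8+ call was lost with other gate thresholds and without the OT1 NegSelected, OT2 PosSelected or OT2 NegSelected mouse, over a range of -1.34 to -0.91. Genes known from the preselection stage were read beside Themis in CD4+CD8+ cells, and their levels differed between the mice. The recombinase gene Rag1 measured 54.9 and 0 CPM in OT1 NoSelection and PosSelected mice and 1408, 60.0 and 212 CPM in the OT2 mice, from 5, 0, 120, 4 and 39 UMIs. Arpp21 measured 165 and 40.2 CPM in these OT1 and 1667, 405 and 560 CPM in these OT2 sums. In CD4-CD8- cells Arpp21 measured 280 and 185 CPM in the same OT1 mice, above their CD4+CD8+ values, and 257, 217 and 358 CPM in the OT2 mice, below theirs. Their part in the Themis difference was not tested.

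Neither negative regulator among the members was called between gates. Ptpn6, which encodes the phosphatase SHP-1, measured 297 and 295 CPM in OT1 CD4+CD8+ cells. In OT2 CD4+CD8+ cells it measured 58.7, 315 and 337 CPM in NoSelection, PosSelected and NegSelected mice, where the OT2 NoSelection value came from 5 UMIs (95% interval 19.1 to 137 CPM) and stood below the others. The CD4+CD8- values ran from 107 to 315 CPM and the CD4-CD8- values from 184 to 340 CPM. All 4 mice with both single-positive gates had less Ptpn6 in CD4+CD8- than in CD4-CD8+ cells (0.562 to 0.87 of the CPM), with a log2 fold change of -0.50 (SE 0.23, adjusted p = 0.306, edgeR).

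Ubash3a ran from 54.3 to 93.8 CPM in CD4+CD8+ cells. Its CD4+CD8- values ran from 71.2 to 174 CPM (median 115, 6 mice), overlapping that range. It was higher in CD4+CD8- cells in 5 of 5 mice, by 1.01 to 3.21 times. The smallest ratio was in the OT1 PosSelected mouse, at 93.8 CPM in CD4+CD8+ and 94.7 CPM in CD4+CD8- cells. These ratios rest on few UMIs and carry no counting intervals, and the OT2 NoSelection CD4+CD8- sum held 10 cells. The log2 fold change was 0.79 (SE 0.29, adjusted p = 0.0946, edgeR). With OT2 mice alone this was 1.27 and called (adjusted p = 0.0343, edgeR), and without the OT1 NegSelected mouse 0.92 and called (adjusted p = 0.0427, edgeR). With OT1 mice alone it was 0.27 (adjusted p = 0.955, edgeR), and without the OT2 NegSelected mouse 0.43 (adjusted p = 0.552, edgeR). Against CD4-CD8+ cells the log2 fold change was 0.71 (SE 0.27, adjusted p = 0.17, edgeR).

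Over the 10 genes the median log2 fold change from CD4+CD8+ cells was -0.04 in CD4+CD8- cells (-0.05 over all genes tested), 0.03 in CD4-CD8+ cells (-0.02) and -0.31 in CD4-CD8- cells (-0.04). All 10 values were below 0 in CD4-CD8- cells, but Ubash3a (-0.02), Cd3g (-0.08) and Ptpn6 (-0.10) lay near 0. Ubash3a turned to 0.12 without the OT2 NoSelection mouse. Cd3g and Ptpn6 turned to 0.004 and 0.03 without the OT1 NoSelection mouse, so these 3 have no settled direction. Markers of other cells were read in that gate: a gamma delta T list (Trdc, Trgc1, Trgc2, Sox13, Maf, Blk) summed to 1377 to 2710 CPM there, with 0 of 6 genes at 0, against 21.7 to 389 CPM in CD4+CD8+ cells. A mast cell list summed to 133 to 1043 CPM, from Cpa3 and Kit with Fcer1a at 0, against 0 in CD4+CD8+ cells. The B cell gene Ighm measured 333 CPM in CD4-CD8- and 366 CPM in CD4+CD8+ cells over all 6 mice. A mature thymocyte list of 5 genes summed to 750 to 1609 CPM in CD4-CD8- and 164 to 831 CPM in CD4+CD8+ cells. An NK and ILC list of 5 genes summed to 210 to 366 and 58.7 to 240 CPM. Of these genes 4 (Ncr1, Klrb1c, Klrd1 and Eomes) were at 0 in all 5 CD4+CD8+ sums, which rest on the remaining gene. Ncr1 was at 0 in 5 of 6 CD4-CD8- sums, and up to 3 of the 5 genes were at 0 in a sum of that gate. The myeloid list summed to 0 to 17.5 CPM in CD4-CD8- cells, the thymic epithelium list to 8.33 to 42.8 CPM and the erythroid list to 0. The sort had kept cells with both transgenic chains, Vα2 and Vβ5. Antibodies to the β chain, Vα2 and Vβ5 were higher in CD4-CD8- than in CD4+CD8+ cells (0.90, 0.83 and 0.85), and the antibody to the gamma delta receptor was at -0.30 and not called. Depth differed too, with a median of 4429 to 6147 RNA UMIs per cell in CD4-CD8- and 1851.5 to 4112 in CD4+CD8+ cells. The part of these in the lower Lck, Themis and Cd3d values was not tested.

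Other genes of the pathway were followed in 4 lists. Of 21 adaptors and effectors, 4, 4 and 3 were called lower and 0, 0 and 2 higher in CD4+CD8-, CD4-CD8+ and CD4-CD8- cells against CD4+CD8+ cells, with list medians of -0.12, -0.36 and -0.32. Over all genes 4.6%, 1.55% and 5.3% were called lower, and the medians were -0.05, -0.02 and -0.04. Sh2d1a, which encodes the SLAM adaptor SAP, was lower in all 3 (log2 fold changes -1.45, -1.14 and -0.68). Tespa1, a thymocyte selection gene, was lower in both single-positive gates (-0.94 and -0.73). The RAS activator gene Rasgrp1 was lower in CD4+CD8- cells (-0.63, SE 0.19, adjusted p = 0.0337, edgeR), and Grb2, an adaptor that binds Lat, was higher in CD4-CD8- cells (0.75, SE 0.17, adjusted p = 0.00587, edgeR). Outside these lists, the Tec-family kinase gene Txk, from a kinase list whose counts are not given, was lower in CD4-CD8- cells (-0.92, SE 0.31, adjusted p = 0.0493, edgeR).

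Of 20 negative regulators tested, 3 were lower and 1 higher in CD4+CD8- cells, 0 changed in CD4-CD8+ cells, and 5 were lower and 1 higher in CD4-CD8- cells against CD4+CD8+ cells, with list medians of -0.30, -0.36 and -0.40. Of all genes 10.3%, 5.4% and 12.7% were called in either direction in these comparisons. Sla, which encodes the adaptor SLAP that lowers receptor level, had log2 fold changes of -1.51 in CD4+CD8- and -1.55 in CD4-CD8- cells. Among ubiquitin ligases, Cbl was lower (-1.47) and Cblb higher (1.20) in CD4+CD8- cells. Cd5, the surface brake that scales with receptor signal, was lower in CD4-CD8- cells (-2.28, SE 0.39, adjusted p = 0.000367, edgeR). Its antibody went the same way there but just missed the threshold (-0.92, SE 0.34, adjusted p = 0.0541, edgeR).

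Of 8 receptor partners tested (coreceptor genes left out, since the gates used their proteins), 3 were lower in CD4+CD8- cells: the receptor constant genes Trbc1 (-1.75), Trbc2 (-1.40) and Trac (-1.27), of which the first pair are near-identical copies whose reads can be split in counting. In CD4-CD8- cells 5 were lower, among them Trac (-2.25), Cd28 (-1.74) and Cd2 (-1.65), and 2 higher, among them the gamma chain gene Trgc1. Trgc1 had 1991 UMIs in CD4-CD8- and 1 UMI in CD4+CD8+ cells. These counts are not scaled to the gates, which held 570 and 198 cells with medians of 5222 and 2404 RNA UMIs per cell. Of 10 signal-induced genes, 1 was higher in CD4+CD8- cells, the immediate early gene Ier2 (1.10), and 3 were lower in CD4-CD8- cells: Egr1 (-1.23), its corepressor gene Nab2 (-1.80) and Itm2a (-1.66). Of all 4374 genes 250 were called higher and 201 lower in CD4+CD8- cells, and 324 and 232 in CD4-CD8- cells. Between the single-positive gates 160 of the 4374 were called in either direction. Between the single-positive gates only the adaptor gene Grap (0.80, higher in CD4+CD8- cells) and Egr1 (-1.18) were called among these 4 lists.

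The difference of the gate comparisons between OT1 and OT2 was tested with a gate by receptor term over 4386 genes. Of the 10 genes edgeR called 0 for CD4+CD8- against CD4+CD8+ cells (0.137% of all genes called) and 0 for CD4-CD8- against CD4+CD8+ cells (0.0912%); 1 and 3 had an unadjusted p under 0.05, and DESeq2 was not run. OT2 minus OT1, the Themis log2 fold change differed by -1.32 (SE 0.43, adjusted p = 0.278, edgeR) in the first and by -1.09 (SE 0.40, adjusted p = 0.345, edgeR) in the second. Zap70 had a difference of 1.14 (SE 0.37, adjusted p = 0.282, edgeR) and Cd3d one of 0.76 (SE 0.30, adjusted p = 0.377, edgeR), both for CD4-CD8- cells.

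Surface CD3, read by its antibody tag, was higher in CD4+CD8- than in CD4+CD8+ cells, a comparison in which RNA of Cd3d, Cd3e, Cd3g and Cd247 did not pass the test. The tag gave 53050 counts and was found in 99.9% of cells; a separate CD3E tag gave only 14 counts and was not used. In CD4+CD8+ cells it measured 6733 and 8886 CPM of antibody UMIs in OT1 NoSelection and PosSelected mice and 5213, 5210 and 5462 in OT2 NoSelection, PosSelected and NegSelected mice. The CD4+CD8- values ran from 9011 to 15511 CPM (median 11950, 6 mice), above every CD4+CD8+ value. The OT2 NoSelection and PosSelected mice were highest and the OT1 NegSelected mouse lowest.

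**Figure D3:**
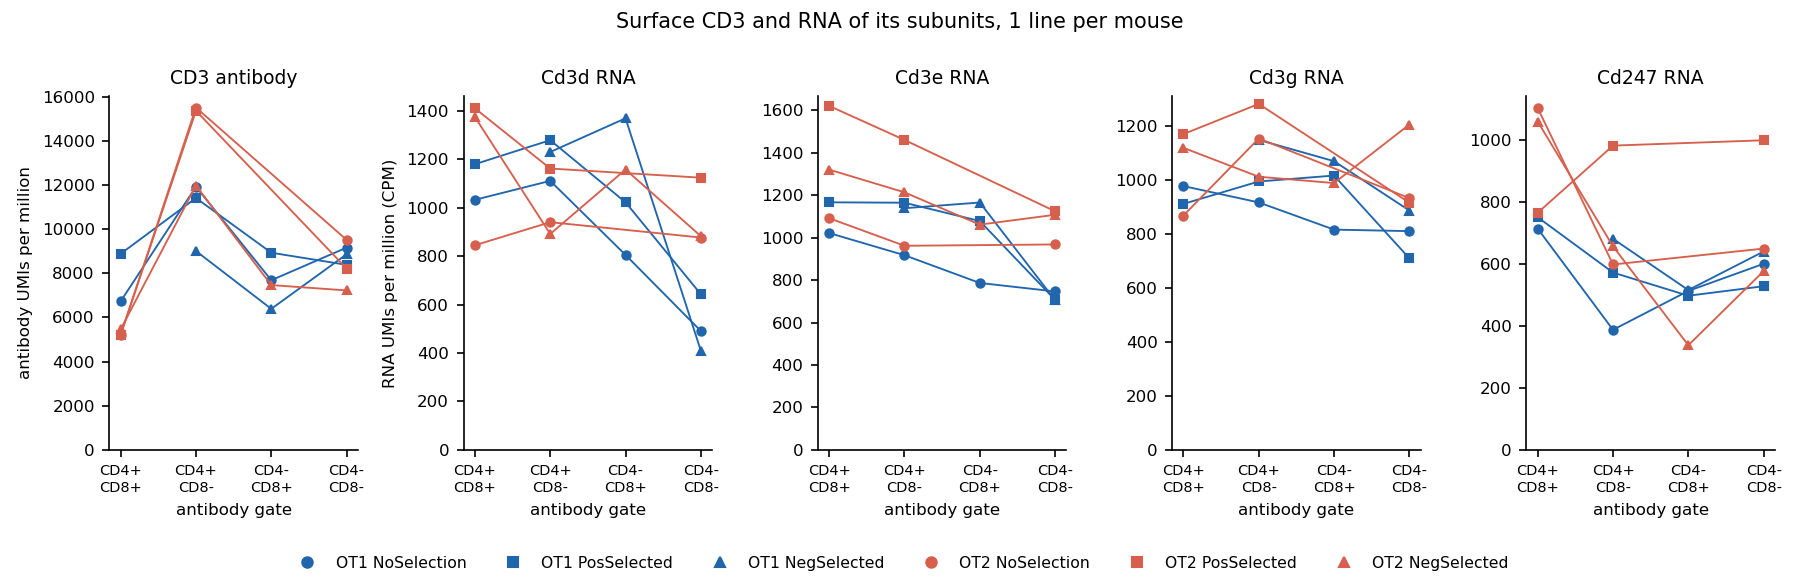
CD3 antibody (left panel, CPM of antibody UMIs) and RNA of Cd3d, Cd3e, Cd3g and Cd247 (CPM) on linear y axes from 0, over the 4 antibody gates, with 1 line per mouse and sums of at least 10 cells. CD3 antibody is at 9011 CPM or more in CD4+CD8- cells of all 6 mice, while Cd3d spans 845 to 1410 CPM in CD4+CD8+ and 892 to 1279 CPM in CD4+CD8- cells.

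The CD3 antibody log2 fold change between CD4+CD8- and CD4+CD8+ cells was 0.96 (SE 0.17, adjusted p = 0.000589, edgeR, higher in 5 of 5 mice), where 28.4% of 116 antibodies were called in either direction and 15.5% higher. Against CD4-CD8+ cells it was 0.70 (SE 0.18, adjusted p = 0.0272, edgeR, higher in 4 of 4 mice; 7.76% of antibodies called, 5.17% higher). That call was lost without the OT1 NoSelection, OT2 PosSelected or OT2 NegSelected mouse, over a range of 0.63 to 0.81. CD4-CD8+ cells measured 7687, 8934 and 6390 CPM in the OT1 mice and 7467 in the OT2 NegSelected mouse, a log2 fold change of 0.26 from CD4+CD8+ cells (SE 0.19, adjusted p = 0.485, edgeR; 8.62% called). CD4-CD8- cells ran from 7226 to 9517, with 0.41 (SE 0.17, adjusted p = 0.0804, edgeR; 29.3% called). With library size as the only scaling this last value was 0.50 and called (adjusted p = 0.0315, edgeR).

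Antibodies to the receptor chains that travel with CD3 to the surface were also higher in CD4+CD8- cells. TCRB, the antibody to the β chain, had a log2 fold change of 2.19 from CD4+CD8+ cells (SE 0.27, adjusted p = 3.82e-05, edgeR), with 8219 to 15827 against 1800 to 4556 CPM. Vα2 had 1.33 (SE 0.26, adjusted p = 0.0013, edgeR) and Vβ5 1.24 (SE 0.27, adjusted p = 0.00251, edgeR). The antibody to the gamma delta receptor was not called in any of the 4 comparisons of gates (-0.30, SE 0.17, adjusted p = 0.182, edgeR in CD4-CD8- cells).

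Within a gate and mouse, cells at or above the median CD3 antibody level were compared with cells below it. The upper cells had median antibody levels of 6032 to 9127 CPM in the CD4+CD8+ gate and the lower cells 4156 to 4413. The same medians in CD4+CD8- cells were 10480 to 19152 and 6969 to 12391. Of the members edgeR called 0 of 9 in the CD4+CD8+ gate (Ubash3a was below the count filter there), where 0% of 1013 genes were called. It called 0 of 10 in CD4+CD8- (0.786% of 2290), 0 in CD4-CD8+ (1.02% of 2355) and 0 in CD4-CD8- cells (0.55% of 6004). Unadjusted, 1, 1, 2 and 1 had p under 0.05 in these gates, and DESeq2 called 0 in each, with 0, 0, 1 and 1 under 0.05.

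Those with the lowest p differed by gate. Themis was at -0.52 (SE 0.19, adjusted p = 0.552, edgeR) in CD4+CD8+ and -0.47 (SE 0.19, adjusted p = 0.489, edgeR) in CD4+CD8- cells with more surface CD3. Cd3d and Cd3g were at 0.39 (SE 0.14, adjusted p = 0.383, edgeR) and 0.34 (SE 0.15, adjusted p = 0.608, edgeR) in CD4-CD8+ cells. Cd247, the chain that joins last to the receptor complex, was at 0.47 (SE 0.14, adjusted p = 0.122, edgeR) in CD4-CD8- cells, and at 0.58 and called without the OT1 PosSelected mouse (adjusted p = 0.0251, edgeR). Among the lists, 5 genes were called lower in CD4+CD8- cells with more CD3: Trbc1 (-1.12), Cd8b1 (-1.46), the exchange factor gene Arhgef6 (-1.30), Socs1 (-1.29) and Itm2a (-0.99). The delta chain gene Trdc was higher in CD4-CD8+ cells with more CD3 (1.02) and Cd8a lower in CD4-CD8- ones (-1.56). Without the OT1 PosSelected mouse 0 genes were called in either single-positive gate, and without the OT2 NegSelected mouse 0 in CD4+CD8- cells, so the calls named in those gates end there.

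Hosts and receptors were compared over all cells with 1 mouse per combination, so the tests rest on additive terms for receptor and host with 2 residual degrees of freedom. Of the 10 genes edgeR called 0 for PosSelected against NoSelection hosts (0.011% of 9092 genes called), 0 for NegSelected against PosSelected (0%), 0 for NegSelected against NoSelection (0%) and 0 for OT2 against OT1 (1.07%). Unadjusted, 3, 1, 1 and 4 had p under 0.05, and DESeq2 called 0 in each, with 2, 0, 1 and 4 under 0.05. The NoSelection term joins 2 host genotypes, 1 per receptor, so host genotype and receptor cannot be told apart in those mice.

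**Figure D4:**
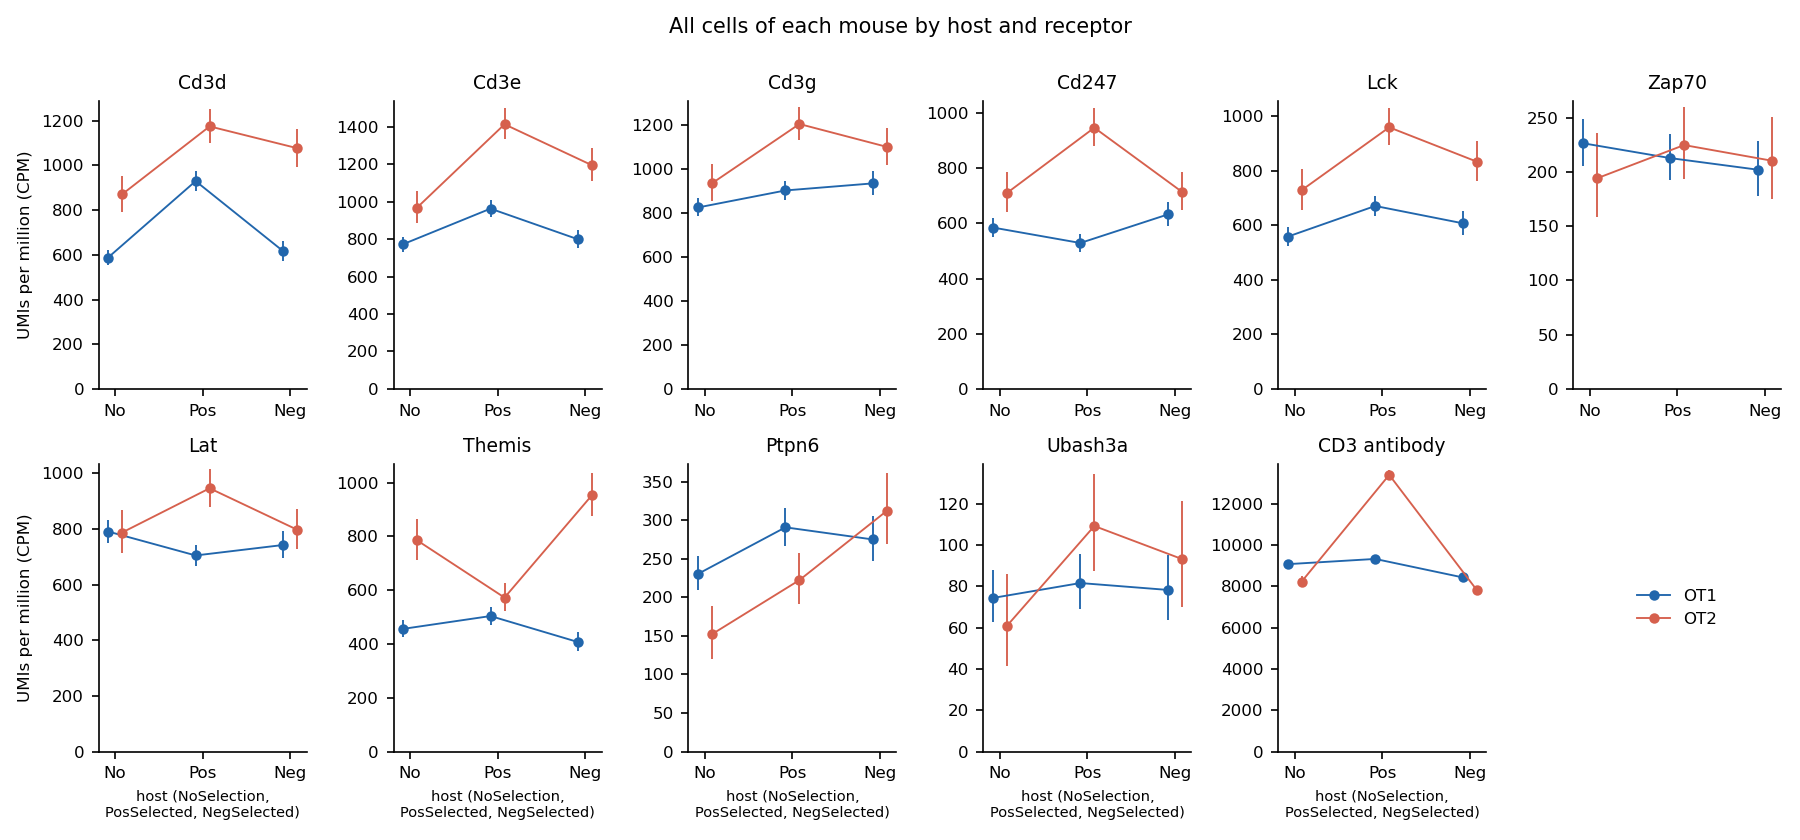
CPM of the 10 genes and of the CD3 antibody over all cells of a mouse (y axes, linear from 0) by host (x axis), with 1 line per receptor and exact Poisson 95% intervals for counting error only. OT2 points of Cd3d, Cd3e and Lck lie above the OT1 points in all 3 hosts, and Themis in OT2 is lowest in the PosSelected host at 572 CPM.

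Over all cells of OT1 mice Cd3d measured 588 (NoSelection), 930 (PosSelected) and 616 CPM (NegSelected), and in OT2 mice of these hosts 871, 1175 and 1077 CPM. PosSelected was highest with both receptors, and the 2 receptors overlapped only in the OT1 PosSelected and OT2 NoSelection values. The log2 fold change was 0.60 for PosSelected against NoSelection hosts (SE 0.17, adjusted p = 0.366, edgeR) and 0.53 for OT2 against OT1 (SE 0.14, adjusted p = 0.157, edgeR). The second was 0.62 and called without the OT2 PosSelected mouse (adjusted p = 0.036, edgeR). The share of CD4-CD8- cells, where Cd3d was lower, was 74.8%, 31.9% and 69.6% in the OT1 and 47.2%, 9.84% and 18.6% in the OT2 mice in that order. Its part in these values was not tested.

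Cd3e measured 773, 963 and 799 CPM in OT1 and 968, 1413 and 1194 CPM in OT2 NoSelection, PosSelected and NegSelected mice, also with PosSelected highest in both. The receptors did not overlap, with 968 CPM as the lowest OT2 and 963 CPM as the highest OT1 value (0.45 for OT2 against OT1, SE 0.13, adjusted p = 0.217, edgeR). Lck measured 558, 671 and 607 CPM in OT1 and 728, 959 and 833 CPM in OT2 mice, without overlap between the receptors (0.42, SE 0.14, adjusted p = 0.252, edgeR). Zap70 ran from 194 to 227 CPM over the 6 mice, and Lat ran from 705 to 946 CPM.

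Themis over all cells measured 456, 504 and 407 CPM in OT1 and 785, 572 and 953 CPM in OT2 NoSelection, PosSelected and NegSelected mice. Each OT2 mouse was above each OT1 mouse, and the host order was opposite in the 2 receptors. OT2 against OT1 was 0.70 (SE 0.19, adjusted p = 0.178, edgeR), and 0.94 and called without either the OT1 or the OT2 PosSelected mouse (adjusted p = 0.0108 and 0.00286, edgeR). It was 0.46 without either the OT1 or the OT2 NegSelected mouse (adjusted p = 0.972 and 0.976, edgeR). Without the count filter it was 0.64 and also called (adjusted p = 0.00468, edgeR). The share of CD4+CD8+ cells, where Themis was highest, was 6.54%, 6.74% and 4.41% in OT1 and 40.7%, 10.2% and 45.2% in OT2 mice in the same order. Within the gates that could be tested the receptor difference of Themis was -0.06 (SE 0.27, CD4+CD8-, adjusted p = 0.979, edgeR) and 0.20 (SE 0.24, CD4-CD8-, adjusted p = 0.999, edgeR). In CD4+CD8+ cells, not tested between receptors, Themis measured 758 and 778 CPM in OT1 and 1606 to 2723 CPM in OT2 mice. The part of the gate shares in the Themis difference was not tested.

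Only the CD4+CD8- and CD4-CD8- gates held at least 10 cells in all 6 mice. Among CD4+CD8- cells edgeR called 0 members in each of the 4 comparisons, in the order given above, where 0.154%, 0.424%, 0% and 0.886% of 2595 genes were called. There 0 had an unadjusted p under 0.05 in each, by edgeR and by DESeq2. In the antigen-bearing hosts Nr4a1, a rapid target of receptor signalling, and Dusp5, a phosphatase gene induced by ERK, were higher than in PosSelected hosts in that gate (log2 fold changes 2.61 and 2.58, SE 0.43 and 0.48, adjusted p = 0.00735 and 0.0152, edgeR), with 0 members called. Cd247 measured 388, 572 and 681 CPM there in OT1 and 598, 982 and 657 CPM in OT2 NoSelection, PosSelected and NegSelected mice. It was lowest without selection in both receptors (0.58 for PosSelected against NoSelection, SE 0.30, adjusted p = 0.888, edgeR), from 17 and 10 cells. Counting intervals of the ratio to NoSelection included 1 for OT1 PosSelected (0.99 to 2.27) and OT2 NegSelected mice (0.715 to 1.74). They lay above 1 for the OT1 NegSelected and OT2 PosSelected mice.

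Among CD4-CD8- cells edgeR called 0 members in the 4 comparisons, where 0%, 0%, 0% and 0.765% of 7324 genes were called; 0, 1, 0 and 2 had an unadjusted p under 0.05, and DESeq2 called 0 with 0, 0, 0 and 2 under 0.05. Cd3d, at 410 to 643 CPM in the 3 OT1 and 877 to 1124 CPM in the 3 OT2 mice without overlap, had a log2 fold change of 0.87 for OT2 against OT1 (SE 0.19, adjusted p = 0.0507, edgeR). It was called under 7 alternatives, at 0.80 to 0.92. Among them were RLE size factors (adjusted p = 0.0459, edgeR) and leaving out the OT1 PosSelected or the OT2 PosSelected mouse (adjusted p = 0.0123 and 0.0109, edgeR). Of these 7, library size alone and the left-out mice were not planned beforehand. The other alternatives, DESeq2 among them, did not call Cd3d. Cd3e had 0.51 (SE 0.19, adjusted p = 0.525, edgeR), with 705 to 747 CPM in OT1 and 968 to 1124 CPM in OT2 mice. Trac was higher in OT2 in the same cells (3.15, SE 0.22, adjusted p = 3.13e-07, edgeR). The gamma delta list there summed to 1733 to 2710 CPM in OT1 and 1377 to 2140 CPM in OT2 mice, and its part in the Cd3d difference was not tested.

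Ptpn6 over all cells measured 230, 291 and 275 CPM in OT1 and 152, 222 and 312 CPM in OT2 NoSelection, PosSelected and NegSelected mice, lowest without selection in both (0.61 for NegSelected against NoSelection, SE 0.22, adjusted p = 1, edgeR). Ubash3a ran from 60.9 to 109 CPM. Surface CD3 over all cells measured 9078, 9331 and 8436 CPM in OT1 and 8236, 13401 and 7829 in OT2 NoSelection, PosSelected and NegSelected mice, where the OT2 PosSelected mouse stood apart and held 76.8% CD4+CD8- cells. By edgeR the CD3 antibody was not called for PosSelected against NoSelection (0.39, SE 0.30, adjusted p = 0.732; 0.862% of antibodies called), NegSelected against PosSelected (-0.47, SE 0.30, adjusted p = 0.625; 0% called), NegSelected against NoSelection (-0.08, SE 0.30, adjusted p = 0.995; 0% called) or OT2 against OT1 (0.07, SE 0.24, adjusted p = 0.905; 0% called). Within CD4+CD8- cells OT2 against OT1 was 0.39 (SE 0.13, adjusted p = 0.357, edgeR; 0% called). There the CD3 antibody measured 0.790 of the PosSelected and 0.756 of the NoSelection level in the OT1 NegSelected mouse, and 0.779 and 0.772 in the OT2 one, each with a counting interval below 1. These intervals leave out the spread between cells and between mice, and the NoSelection sums held only 17 (OT1) and 10 cells (OT2). By edgeR NegSelected against NoSelection was -0.45 (SE 0.16, adjusted p = 0.526) and against PosSelected -0.33 (SE 0.16, adjusted p = 0.742), neither called.

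The genes most like each member were sought by Pearson correlation of log2 CPM over the 18 sums of at least 20 cells, among 3517 genes of at least 50 CPM on average. These sums share mice, gates and depth, so the values describe these sums only. Themis was nearest to Smg1 (r = 0.936), Trp53inp1 and Atl2, and Lck to Satb1 (0.886), a chromatin organizer of thymocytes, and Ssbp2 (0.87). Cd3g was nearest to Fyn (0.888), another Src-family kinase of T cells, and Cd3d to Cd28 (0.815). Ptpn6 was nearest to the adhesion gene Cd2 (0.899), Lat to Tle5 (0.898), Cd247 to Kdm3a (0.865), Cd3e to Gramd1a (0.818), Zap70 to Atp6v1h (0.801) and Ubash3a to Zdhhc18 (0.765). Among the members themselves Cd3d and Cd3e were closest (0.817), then Cd3e and Cd3g (0.741), Zap70 and Ptpn6 (0.715) and Lck and Themis (0.657), while Cd247 and Ptpn6 were farthest apart (-0.505).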

How the data were processed

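Thymocytes of 6 mice were profiled as single cells on 1 lane with mouse hashtags. The deposited tables hold counts: UMI counts of 55494 genes and of antibody tags per cell, not normalized. Cell Ranger 8.0.1, Seurat and mm10 are named per the submitters' processing notes; how cells were assigned to mice, filtered or freed of doublets is not given in the sources used here, and no doublet caller was run. Receptor sequence libraries were not analysed here. All 1331 barcodes were distinct.

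Gates came from a mixture of 2 normal components (scikit-learn 1.9.0) on log2 of antibody counts per 10000, plus 1, for CD4 and CD8A. Counts were summed per mouse and gate (at least 10 cells) and tested with edgeR 4.0.16 in R 4.3.3 (TMM, filterByExpr, quasi-likelihood, Benjamini-Hochberg threshold 0.05), with mouse as a block between gates and additive terms for receptor and host otherwise. An SE is the log2 fold change divided by the square root of F. CPM are UMIs per 1000000 of a sum, and Poisson and binomial intervals (exact, 95%) cover counting error only. The scripts were tested on simulated data. Alternatives were DESeq2 1.42.0, other scaling, filters, thresholds, cells and mice. With 1 mouse per receptor and host, p-values measure the spread that remains after additive terms.

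The members and gene lists were chosen with earlier results of these data known. Named were the 10 members and the CD3 antibody in every comparison, at most 6 called genes per list and comparison by lowest p, and the 3 genes most correlated with each member. Promoter sequences are RefSeq's for GRCm38.p6, the assembly called mm10. Summed values of a kinase, a preselection and a B cell list are not reported here.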

Additional observations from a re-analysis of the deposited data

Results flagged for a closer look

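Several ratios between hosts went opposite ways in OT1 and OT2 mice, each with a counting interval (95%) clear of 1. Each ratio compares 1 mouse with 1 mouse, so the difference between receptors was not tested. For Cd247 over all cells, PosSelected to NoSelection was 0.904 in OT1 and 1.33 in OT2, and NegSelected to PosSelected was 1.20 and 0.755. The same Cd247 ratios in CD4-CD8- cells were 0.880 in OT1 and 1.54 in OT2, then 1.21 and 0.577. The OT2 PosSelected mouse had the highest Cd247 level of the 6 in both sets of cells.

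For Lat, PosSelected to NoSelection was 0.891 in OT1 and 1.20 in OT2 over all cells, and 0.827 and 1.46 in CD4-CD8- cells. For Themis over all cells, PosSelected to NoSelection was 1.105 in OT1 and 0.729 in OT2, NegSelected to PosSelected was 0.808 and 1.665, and NegSelected to NoSelection was 0.893 and 1.21. The Themis ratio of NegSelected to NoSelection in CD4+CD8- cells was 1.80 in OT1 and 0.558 in OT2, from sums that held only 17 and 10 cells without selection. That of NegSelected to PosSelected in CD4-CD8- cells was 0.835 in OT1 and 1.815 in OT2. For the CD3 antibody in CD4-CD8- cells, NegSelected to PosSelected was 1.06 in OT1 and 0.879 in OT2.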

How the results depend on the processing

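Over 2777 alternative values of the members and the antibodies, 143 were called in the reported or the alternative setting and 0 of these changed sign; of the 2634 called in neither, 266 did. Library size as the only scaling moved the median of all genes by -0.163 (CD4+CD8-), -0.155 (CD4-CD8+) and -0.09 (CD4-CD8-, all against CD4+CD8+ cells); RLE moved it by at most 0.018 in RNA.

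With OT1 mice alone Themis was -0.62 in CD4+CD8-, -0.52 in CD4-CD8+ and -0.75 in CD4-CD8- cells, none called. Its CD4-CD8+ value was also uncalled at -1.03 and -0.87 (thresholds 0.5 higher and lower), -0.77 (undivided antibody counts) and -1.32 (OT2 alone); leaving out mice gave -1.34 to -0.91. Cd3d in CD4-CD8- cells was uncalled at -0.61 (RLE, and DESeq2), -0.47 (no filter), -0.59 (no mouse block), -0.51 (without the top 5% of cells by UMIs), -0.56 (sums of 20 cells), -0.33 (higher thresholds), -0.49 (undivided) and -0.15 (OT2 alone), with -0.76 to -0.47 over left-out mice. The CD3 antibody in CD4-CD8- cells was called at 0.50 (library size) and 0.44 (capped counts), and ranged over 0.34 to 0.56 without each mouse, called without OT1 PosSelected. Against CD4-CD8+ cells it was 0.63 to 0.81 in CD4+CD8- cells.

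Counts of all genes called moved more. For CD4+CD8- against CD4+CD8+ (451) they were 207 undivided, 15 with OT1 alone and 275 to 490 without each mouse (275 without OT2 PosSelected, 279 without OT2 NegSelected). For CD4-CD8+ (236) they were 393 without a filter, 482 without the mouse block, 66 with lower thresholds, 13 undivided, 4 with OT1 alone and 24 to 246 without each mouse (24 without OT2 NegSelected, 131 without OT1 PosSelected, 147 without OT2 NoSelection). For CD4-CD8- (556) they were 356 without top cells, 183 undivided, 93 with OT1 alone and 342 to 520 without each mouse (342 without OT2 NegSelected, 353 without OT2 NoSelection). Between single-positive gates (160) they were 342 without a filter, 33 without top cells, 73 with sums of 20 cells, 54 with lower thresholds, 31 undivided, 5 with OT2 alone and 48 to 167 without each mouse (48, 69 and 90 without OT1 NegSelected, NoSelection and PosSelected).

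For hosts over all cells, PosSelected against NoSelection (1) gave 33 in DESeq2, 280 without a filter, 99 without top cells, 23 at equal cell numbers and 0 to 248 without each mouse; NegSelected against PosSelected (0) gave 6, 98, 14, 5 and 0 to 59 in that order. NegSelected against NoSelection (0) gave 54 without a filter and 0 to 78 without each mouse, and OT2 against OT1 (97) gave 589 without a filter, 224 without top cells, 57 at equal cells and 25 to 660. In CD4+CD8- cells PosSelected against NoSelection (4) gave 2 with RLE, 1 in DESeq2, 12 without a filter, 2 without top cells, 35 and 10 with higher and lower thresholds and 6 to 46 without each mouse. NegSelected against PosSelected (11) gave 2 in DESeq2, 33 without a filter, 33 with higher thresholds and 6 to 38. NegSelected against NoSelection (0) gave 16 without a filter, 21 and 8 with higher and lower thresholds and 4 to 31. OT2 against OT1 (23) gave 11 in DESeq2, 71 without a filter, 137 and 38 with higher and lower thresholds and 13 to 106.

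In CD4-CD8- cells PosSelected against NoSelection (0) gave 11 without a filter, 4 without top cells and 0 to 61; NegSelected against PosSelected (0) gave 11, 2, 2 with higher thresholds and 0 to 45. NegSelected against NoSelection (0) gave 4, 1, 1 with higher thresholds and 1 to 25, and OT2 against OT1 (56) gave 24 in DESeq2, 131 without a filter, 90 without top cells, 91 with lower thresholds and 15 to 193. By surface CD3, CD4+CD8+ cells (0) gave 4 without a filter and 0 to 4, CD4+CD8- cells (18) 4 in DESeq2 and 0 to 16, CD4-CD8+ cells (24) 4 in DESeq2 and 0 to 45, and CD4-CD8- cells (33) 2 in DESeq2, 178 without a filter and 5 to 163. Except where fewer samples or another number of genes entered, the cause was not tested. Between hosts and receptors, no paired analysis was possible because each combination is 1 mouse; comparisons of gates and of surface CD3 levels were paired through the mouse block.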

Other observations

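OT2 and OT1 CD4-CD8- cells differed in other receptor-linked genes. Fcer1g, a signalling chain that can stand in for the ζ chain, was higher in OT2 (log2 fold change 4.10, SE 0.64, adjusted p = 0.00411, edgeR), as were the costimulatory receptor gene Cd28 (1.31, SE 0.29, adjusted p = 0.0481, edgeR), the phosphatase gene Ubash3b, the relative of Ubash3a (1.86, SE 0.35, adjusted p = 0.0173, edgeR), and Nr4a1 (1.94, SE 0.42, adjusted p = 0.0408, edgeR). Among CD4+CD8- cells Trac was higher in OT2 (2.32) and Trbc1 and Trbc2 were lower (-1.94 and -1.57).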
